A study of Rattus norvegicus with 12 samples.

Results

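A set of 9 genes whose enzymes convert androgens, glucocorticoids, oestrogens and oxysterols was followed in cultured rat ovarian cells: Srd5a1, Srd5a3, Akr1c14, Akr1c1, Akr1c3, Hsd11b1, Sult1a1, Cyp7b1 and Cyp1b1. They were chosen by symbol, and all 9 stood among the 30045 rows of the deposited count table and among the 17330 genes that passed the filter on low counts. The cultures were of theca-interstitial cells, which make androgens in the follicle wall and stroma, isolated from wild-type female Sprague Dawley rats on postnatal day 30 and grown on human fibronectin in McCoy's medium. Cultures received vehicle (control), rat interleukin-1β (IL-1β, whose dose the labels do not give) or bacterial lipopolysaccharide (LPS, 1 µg/ml) for 48 h, with 4 libraries of polyadenylated RNA per group. Nothing in the labels ties a replicate to its own animal or isolation, so the spread behind each p-value is that of these samples and may be technical.

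Steroid hormones act through their precise structure, and the enzymes followed here change that structure after the hormone has been made. Reductases of the steroid A ring turn testosterone into the more potent dihydrotestosterone, and aldo-keto reductases of the Akr1c family then reduce ketone groups, which weakens androgens and progestins or, at another position, makes testosterone. Hsd11b1 regenerates active corticosterone from its inert ketone, Sult1a1 attaches sulphate to phenolic steroids, and the cytochromes Cyp7b1 and Cyp1b1 hydroxylate oxysterols and oestrogens. In the ovary such enzymes set which of the steroids made by theca cells reach the granulosa cells or the blood.

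Transcripts of all 9 enzymes rose with IL-1β, and those of 6 rose with LPS, while none fell in either comparison. Cyp7b1 had the highest fold, 5.04-fold with IL-1β and 6.97-fold with LPS, and Akr1c3 (3.92-fold and 4.28-fold) and Akr1c1 (3.60-fold and 3.58-fold) followed. Cyp1b1 rose 1.85-fold and 2.52-fold, and Akr1c14 1.46-fold and 1.72-fold. The changes of Hsd11b1 were small in both, and Srd5a1, Srd5a3 and Sult1a1 passed the threshold with IL-1β alone. Folds and tests came from edgeR's quasi-likelihood test across all genes, and a gene passed at a Benjamini-Hochberg adjusted p under 0.05. Over all genes tested, 47.7% passed with IL-1β (24.7% higher and 23.0% lower) and 42.5% with LPS (22.5% higher and 20.0% lower). For all 9 enzymes every IL-1β library lay above every control library, which held for 22.8% of genes tested, and for 6 every LPS library did, which held for 20.1%. The median log2 fold change of the 9 was 0.55 with IL-1β and 0.78 with LPS, beside 0.01 over all genes in each. Both comparisons use the same 4 control libraries.

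**Figure D1:**
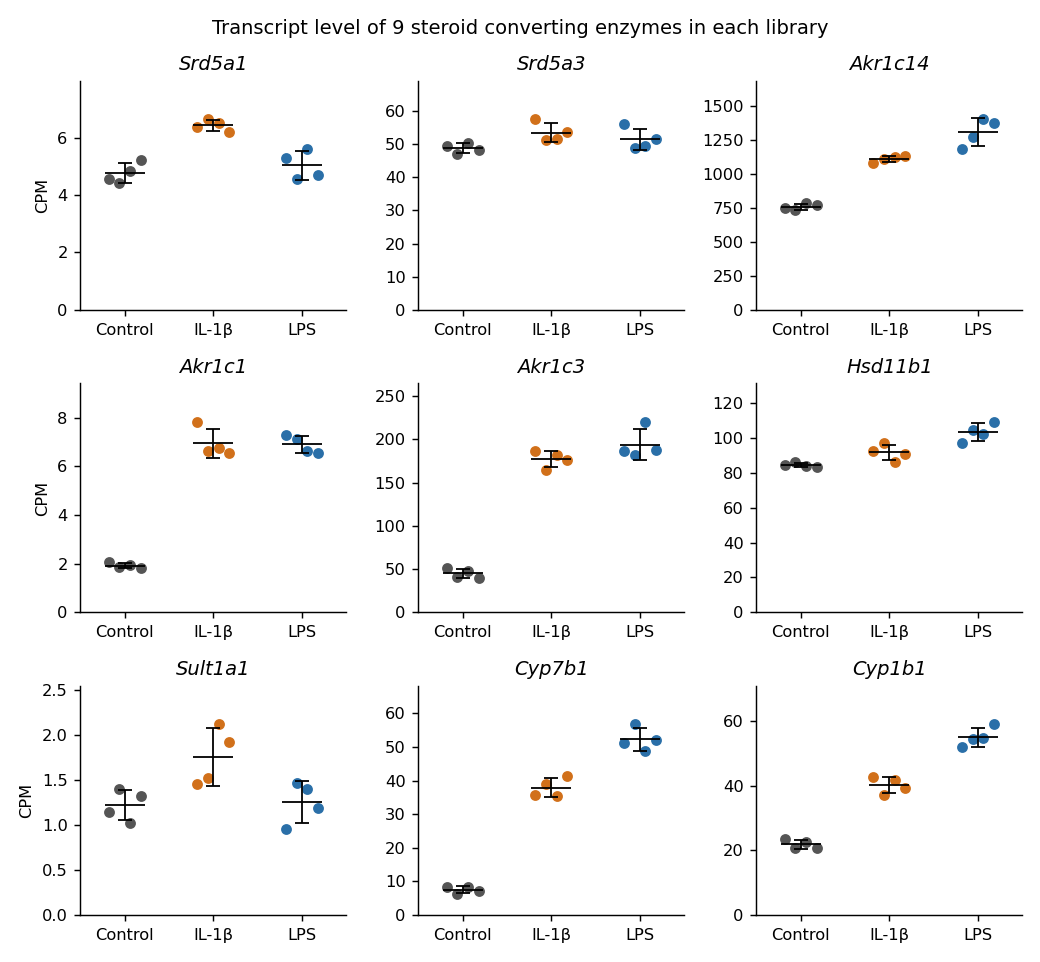
Level of each of the 9 transcripts in CPM (the count scaled to the library's total, vertical axis, starting at 0) in the 4 control, 4 IL-1β and 4 LPS libraries; points are libraries, and the bar and whiskers are the mean ± SD. All IL-1β libraries lie above all control libraries for each gene, as do the LPS libraries for Akr1c14, Akr1c1, Akr1c3, Hsd11b1, Cyp7b1 and Cyp1b1.

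Library totals ran from 20873934 to 32090924 counts. All 13 markers of theca-interstitial cells could be tested, and their summed level was 6007 to 6701 CPM (counts scaled to the library total) in control libraries, 5179 to 5675 with IL-1β and 4360 to 4852 with LPS. The collagen gene Col1a1 made up most of this sum and fell from a mean of 4772 CPM to 3337 and 2676, while by gene 9 of the 13 rose and 3 fell with IL-1β and 7 rose and 3 fell with LPS (medians 0.44 and 0.16). Of 2 theca genes, Cyp17a1 had 12 to 18 counts per control library, 276 to 455 with IL-1β and 51 to 143 with LPS. Insl3 had 4 to 8 counts per control library, 10 to 20 with IL-1β and 9 to 16 with LPS. Markers of other cells that the cultures could hold moved with treatment, and 12 of 12 endothelial markers rose with IL-1β and 11 with LPS. Of 14 macrophage markers, 9 fell and 2 rose with IL-1β, and 10 fell and 2 rose with LPS. Emr1 among them fell with IL-1β and rose with LPS (log2 fold changes -1.57 and 0.31). Of 10 smooth muscle and pericyte markers, 7 fell and 2 rose with IL-1β, and 8 fell and 0 rose with LPS. The summed level of 12 endothelial markers went from 196 to 232 CPM in control libraries to 419 to 477 with IL-1β and 291 to 393 with LPS. The sum of 14 macrophage markers went from 152 to 163 CPM to 106 to 114 and 100 to 109, and that of 8 granulosa markers from 503 to 552 CPM to 690 to 883 and 526 to 675. Inha, the highest of these 8, went from a mean of 280 CPM to 536 and 369. By gene 4 of the 8 granulosa markers rose and 2 fell with IL-1β, and 3 rose and 1 fell with LPS. Amh was lower with both (log2 fold changes -1.23 and -1.32). The smooth muscle and pericyte sum went from 5304 to 5716 CPM to 2078 to 2285 and 2342 to 2543. The 9 surface epithelium markers summed to 84.7 to 89.7 CPM, 89.3 to 96.1 and 78.6 to 88.1, and 3 rose and 3 fell with each treatment: Krt18 (-2.01 and -2.03) and Krt8 (-1.21 and -1.26) were lower, and Msln (3.17 and 3.02) and Wt1 (0.46 and 0.31) higher. No marker of these lists was at 0 in any group. The part of these shifts in the enzyme results was not tested, and in bulk cultures fewer cells of a type and less RNA per cell cannot be told apart. Chi-square per degree of freedom over genes was 3.22 to 5.21 between LPS replicates 3 or 4 and the other LPS libraries, and 1.82 to 3.56 between the other libraries of a group. Without these 2 libraries 6 of the 9 enzymes were again higher with LPS than in control.

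Srd5a1 encodes the steroid 5-alpha reductase that makes dihydrotestosterone in many tissues. Its level was 4.57, 4.41, 4.83 and 5.20 CPM in control replicates 1 to 4 and 6.37, 6.64, 6.51 and 6.20 CPM with IL-1β. With LPS it was 5.30, 4.55, 5.61 and 4.69 CPM, which overlapped the control range. All IL-1β libraries lay above all libraries of the other groups. The rise with IL-1β was 0.43 ± 0.09 on the log2 scale (± is the SE where it follows a log2 value, with 4 libraries a group), or 1.35-fold (adjusted p = 3.57e-04, edgeR). The LPS difference from control was 0.08 ± 0.10 (adjusted p = 0.546), with a 95% interval from 0.92-fold to 1.21-fold. Between the treatments Srd5a1 was lower with LPS by -0.36 ± 0.09 (adjusted p = 0.00639). The gene of the second isoform, Srd5a2, had 0 to 2 counts in every library and was not tested.

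Srd5a3, named for the same activity, is best known as the reductase that turns polyprenol into dolichol, the lipid on which sugar chains of glycoproteins are built. Its level was 49.4, 46.9, 50.3 and 48.3 CPM in control libraries, 57.5, 51.3, 51.6 and 53.5 with IL-1β and 55.9, 48.7, 49.5 and 51.5 with LPS. Each IL-1β library exceeded each control library, though the nearest of them differed by about 1 CPM. The rise with IL-1β was 0.14 ± 0.04 (1.10-fold, adjusted p = 0.0135, edgeR), and the call was lost without Control replicate 2 (0.12, adjusted p = 0.0515) and without IL-1β replicate 1 (0.10, adjusted p = 0.0843). With LPS the value was 0.08 ± 0.04 (adjusted p = 0.163), with a 95% interval from 0.99-fold to 1.12-fold. It passed with library size alone as the scaling (0.12, adjusted p = 0.0356). Of 18 other genes of dolichol and sugar chain assembly, 4 rose and 3 fell with IL-1β, and 2 rose and 1 fell with LPS (medians 0.01 and -0.03). Dpagt1, which starts the chain on dolichol phosphate, rose by 0.20 ± 0.04 and 0.18 ± 0.04, and Dolpp1, which recycles the lipid, fell by 0.33 ± 0.08 and 0.50 ± 0.08. Without LPS replicates 3 and 4 the number lower with LPS was 3.

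Akr1c14, the rat 3-alpha-hydroxysteroid dehydrogenase, reduces dihydrotestosterone and dihydroprogesterone. It stood at 753, 733, 784 and 769.5 CPM in control libraries. With IL-1β the values were 1082, 1110, 1125 and 1133 CPM, and with LPS 1181, 1275, 1404 and 1376 CPM. The 3 groups did not overlap, in the order control, IL-1β, LPS. The log2 fold changes were 0.55 ± 0.04 with IL-1β (adjusted p = 1.50e-09) and 0.78 ± 0.04 with LPS (adjusted p = 8.84e-12, edgeR). LPS was above IL-1β by 0.23 ± 0.04 (adjusted p = 4.12e-04), a test of that difference itself.

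Akr1c3, which RefSeq also lists as Akr1c18, is the rat 20-alpha-hydroxysteroid dehydrogenase, which inactivates progesterone. It went from 51.6, 41.4, 47.8 and 40.3 CPM in control libraries to 186, 165, 182 and 177 with IL-1β and 186, 182, 221 and 187 with LPS. Every treated library was at least 3 times the highest control library, and the treated groups overlapped. The log2 fold changes were 1.97 ± 0.09 with IL-1β (adjusted p = 2.29e-08) and 2.10 ± 0.09 with LPS (adjusted p = 1.64e-08, edgeR). Of the genes tested, 0.814% had a higher log2 fold change with IL-1β and 0.554% with LPS. The difference between treatments was 0.13 ± 0.08 (adjusted p = 0.323), with a 95% interval of the LPS level from 0.96-fold to 1.24-fold of the IL-1β level.

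Akr1c1, listed also as Akr1c6 and Hsd17b5, carries the name of a 17-beta-hydroxysteroid dehydrogenase, a kind of enzyme that makes testosterone from androstenedione. It was a low transcript, with 40 to 65 counts per control library. The level was 2.06, 1.87, 1.95 and 1.81 CPM in control libraries, 7.83, 6.64, 6.77 and 6.54 with IL-1β and 7.28, 7.14, 6.63 and 6.54 with LPS. Treated and control libraries did not overlap, and the ranges of the treated groups overlapped. The log2 fold changes were 1.85 ± 0.11 (adjusted p = 2.69e-14) and 1.84 ± 0.11 (adjusted p = 3.01e-14, edgeR). The difference between treatments was -0.01 ± 0.09 (adjusted p = 0.949), with a 95% interval from 0.88-fold to 1.12-fold.

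The 3 Akr1c enzymes belong to a cluster of 9 genes on chromosome 17 in the RefSeq assembly GRCr8. Of the 8 tested, 5 rose with both treatments and none fell. The other members that rose were Akr1c15, present under its older symbol Akr1cl, and Akr1c19. Akr1cl went from 6.04 ± 0.61 CPM (SD, n = 4) to 24.4 ± 1.88 with IL-1β and 20.9 ± 1.73 with LPS (log2 fold changes 2.02 ± 0.08 and 1.79 ± 0.08). Akr1c19 rose by 0.61 ± 0.08 and 0.37 ± 0.08. Akr1c3, Akr1c14 and Akr1c15 are the last 3 genes of the cluster in this order, and Akr1c1 is the second. Between Akr1c1 and Akr1c3 lie Akr1c19 and also Akr1c12l1, Akr1c13 and Akr1c12, whose values with IL-1β were -0.22 ± 0.45, -0.25 ± 0.11 and -0.30 ± 0.24 and did not pass, nor did those with LPS (0.31 ± 0.41, 0.13 ± 0.10 and 0.19 ± 0.22). Akr1c13 was called lower without IL-1β replicate 3 (-0.33, adjusted p = 0.0246). RefSeq gives Akr1c12 and Akr1c13 as synonyms of each other, so these rows keep the symbols of the deposited table. Akr1c2 had 1 to 12 counts per library and was not tested.

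**Figure D2:**
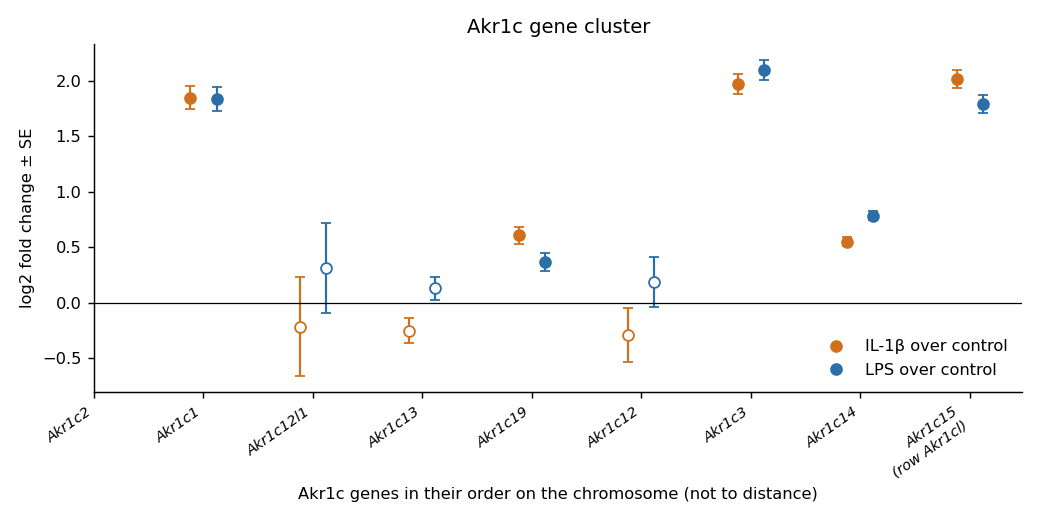
Log2 fold change ± SE over control (vertical axis) of the Akr1c genes in their order along chromosome 17 (horizontal axis, evenly spaced), with IL-1β in orange and LPS in blue. Filled points passed an adjusted p under 0.05 and open points did not; Akr1c1, Akr1c19, Akr1c3, Akr1c14 and Akr1c15 are filled for both treatments, and Akr1c2 was not tested.

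Reads of the 9 Akr1c rows were also shared out differently. Akr1c14 took 91.6% ± 0.74 of them (SD, n = 4, not corrected for transcript length) in control libraries, 82.8% ± 0.71 with IL-1β and 84.4% ± 0.80 with LPS. Akr1c3 took 5.45% ± 0.59, 13.2% ± 0.72 and 12.5% ± 0.79. For both genes treated and control libraries did not overlap. The members are similar in sequence, and the program that counted the reads is not given in the sources used here, so the split of reads between members is uncertain. With all 9 rows summed, the log2 fold change was 0.69 ± 0.04 with IL-1β and 0.90 ± 0.04 with LPS (adjusted p = 2.07e-12 and 3.00e-14, edgeR), and LPS was above IL-1β by 0.21 ± 0.04.

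Promoter sequence was compared for the Akr1c genes because several neighbours moved together. Of the 9 enzymes, 6 had a promoter in the RefSeq table, and Akr1c1, Hsd11b1 and Cyp7b1 had no entry. In the 250 bases before the start, the longest stretch shared by Akr1c3 and Akr1c14 was 14 bases, CCCACATGCCATTG, which stood in no other of the 33469 promoters. It was the longest stretch of this pair, found among 28 pairs of 8 Akr1c promoters. The pair Akr1c12 and Akr1c13, whose rows did not pass in either treatment, shared a stretch of 66 bases. That stretch also stood in no other promoter. The same held for 31 bases shared by Akr1c12 and Akr1c12l1 and 12 shared by Akr1c15 and Akr1c19, so such absence elsewhere is not particular to Akr1c3 and Akr1c14. The 2 promoters are printed 5′ to 3′ on the gene's strand with the shared stretch in capitals, for Akr1c3 at chr17:71020634-71020883 (plus strand) and for Akr1c14 at chr17:71083185-71083434 (minus strand), both of GRCr8.
Akr1c3: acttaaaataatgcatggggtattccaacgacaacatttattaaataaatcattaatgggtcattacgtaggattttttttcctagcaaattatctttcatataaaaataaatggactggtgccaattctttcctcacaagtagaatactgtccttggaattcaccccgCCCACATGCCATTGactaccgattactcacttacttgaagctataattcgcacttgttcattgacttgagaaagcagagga
Akr1c14: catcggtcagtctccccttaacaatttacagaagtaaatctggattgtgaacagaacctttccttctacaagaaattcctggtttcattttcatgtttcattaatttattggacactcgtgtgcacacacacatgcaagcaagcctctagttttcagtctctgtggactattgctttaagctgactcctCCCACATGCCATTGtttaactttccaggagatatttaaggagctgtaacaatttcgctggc
The shared stretch lies 81 to 68 bases before the start of Akr1c3 and 61 to 48 bases before that of Akr1c14, on the same strand relative to the gene. An NF-kB consensus, searched by its usual degenerate motif of 10 letters on both strands, matched the Akr1c3 promoter alone among the 6, 234 to 225 bases before the start, and 3.54% of all promoters hold such a match. The AP-1 motif TGANTCA and the motif AGGTCA of steroidogenic factor 1 matched none of the 6, against 6.34% and 14.1% of all promoters. A match describes letters in this window only.

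Hsd11b1 regenerates corticosterone inside the cell. Its level was 84.2, 85.9, 83.9 and 83.2 CPM in control libraries. With IL-1β it was 92.2, 96.9, 86.3 and 90.9 CPM, and with LPS 97.0, 105, 102 and 109 CPM. Each group of treated libraries lay above the control libraries, and the lowest LPS library was just above the highest IL-1β library. The log2 fold change with LPS was 0.29 ± 0.04 (1.23-fold, adjusted p = 1.31e-07). With IL-1β it was 0.12 ± 0.04 (1.09-fold, adjusted p = 0.00898, edgeR), a call lost without IL-1β replicate 2 (0.09, adjusted p = 0.0557). LPS was above IL-1β by 0.17 ± 0.04 (adjusted p = 8.03e-04).

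Other genes of glucocorticoid handling went both ways, with 5 of 10 tested higher and 4 lower with IL-1β, and 4 and 4 with LPS (medians 0.08 and -0.07). H6pd, which supplies Hsd11b1 with its cofactor, rose by 0.54 ± 0.05 with IL-1β and 0.50 ± 0.05 with LPS. Nr3c1, the glucocorticoid receptor gene, fell by 0.45 ± 0.03 and 0.20 ± 0.03. Among genes that glucocorticoids are known to induce, Fkbp5 rose by 0.75 ± 0.03 and 0.83 ± 0.03 and Sgk1 by 0.53 ± 0.04 and 0.27 ± 0.04. Klf9 rose by 0.45 ± 0.05 and 0.33 ± 0.05, and Per1 by 0.21 ± 0.05 with IL-1β, while Per1 stood at 0.07 ± 0.05 with LPS (adjusted p = 0.345, edgeR). Tsc22d3 fell by 0.33 ± 0.05 and 0.27 ± 0.05, and Dusp1 by 0.60 ± 0.05 and 0.38 ± 0.05. Klf9, Per1, Tsc22d3 and Dusp1 lay outside the rule for named genes and were added after their values were seen. With them all 6 tested induced genes of the list are given. Zbtb16, also in the list, had 3 to 12 counts per library and was not tested. Hsd11b2, which inactivates corticosterone, had 13 to 38 counts per library and did not pass with either treatment (-0.06 ± 0.23 and -0.45 ± 0.23), but was called lower with LPS without LPS replicate 2 (-0.65, adjusted p = 0.0388).

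Sult1a1, a sulphotransferase of phenols and oestrogens, was the lowest of the 9 in counts, with 21 to 58 per library. Its level was 1.14, 1.41, 1.02 and 1.32 CPM in control libraries, 1.46, 1.52, 2.12 and 1.92 with IL-1β and 0.951, 1.47, 1.40 and 1.19 with LPS. The IL-1β libraries lay above all control libraries, and the LPS libraries covered the control range. The rise with IL-1β was 0.52 ± 0.18 (1.43-fold, adjusted p = 0.0216, edgeR). It did not pass with DESeq2 (adjusted p = 0.0548), nor without Control replicate 1 (0.48, adjusted p = 0.0626), Control replicate 3 (0.46, adjusted p = 0.0600), IL-1β replicate 3 (0.41, adjusted p = 0.100) or IL-1β replicate 4 (0.47, adjusted p = 0.0579). With LPS the value was 0.03 ± 0.19 (adjusted p = 0.930), with a 95% interval from 0.78-fold to 1.34-fold. The difference of LPS from IL-1β, -0.49 ± 0.18, missed the threshold (adjusted p = 0.0537), and passed without IL-1β replicate 1 (-0.57, adjusted p = 0.0387) and without LPS replicate 2 (-0.58, adjusted p = 0.0381).

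Of 19 other genes of sulphation and catechol oestrogen handling, 8 could be tested, with 1 higher and 4 lower with IL-1β and 0 higher and 3 lower with LPS (medians -0.12 and -0.02). Both synthases of the sulphate donor fell, Papss2 by 0.53 ± 0.06 and 0.42 ± 0.06 and Papss1 by 0.19 ± 0.04 and 0.17 ± 0.04. The sulphate transporter gene Slc26a2 fell with IL-1β (0.19 ± 0.04 lower), while with LPS it stood at -0.03 ± 0.04 (adjusted p = 0.580). The gene of the oestrogen sulphotransferase Sult1e1, under its older symbol ste2, had 0 to 4 counts per library and was not tested.

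Cyp7b1 hydroxylates oxysterols, among them those made by Ch25h, and also the androgen precursor dehydroepiandrosterone. It stood at 8.25, 6.24, 8.34 and 7.21 CPM in control libraries. With IL-1β it reached 35.7, 39.1, 35.4 and 41.3 CPM and with LPS 51.2, 56.8, 48.9 and 52.2 CPM. The 3 groups did not overlap, and LPS was the highest. The log2 fold changes were 2.33 ± 0.08 with IL-1β (adjusted p = 1.49e-16) and 2.80 ± 0.07 with LPS (adjusted p = 3.94e-18, edgeR). Only 85 of the genes tested had a higher log2 fold change with IL-1β, and 44 with LPS. LPS was above IL-1β by 0.47 ± 0.06, or 1.38-fold (adjusted p = 6.73e-06).

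A gene that makes a substrate of Cyp7b1 rose too. Ch25h, cholesterol hydroxylase of immune and stromal cells, went from 1.74 ± 0.50 CPM (SD, n = 4) to 6.88 ± 0.40 with IL-1β and 6.20 ± 0.77 with LPS (log2 fold changes 1.96 ± 0.14 and 1.80 ± 0.14), and for Ch25h the treatments differed by -0.15 ± 0.11 (adjusted p = 0.371, edgeR). Cyp27a1, another gene of oxysterol formation, had a higher control mean of 59.3 CPM and did not pass. It stood at -0.10 ± 0.04 with IL-1β (adjusted p = 0.0617) and 0.10 ± 0.04 with LPS (adjusted p = 0.057, edgeR). Several alternatives called it, lower with IL-1β and higher with LPS. In the list of oxysterol formation, removal and sensing, 7 of 16 tested genes rose and 2 fell with IL-1β, and 6 rose and 3 fell with LPS (medians 0.13 and 0.09). Abcg1, a sterol exporter and known target of the oxysterol receptors, rose by 1.31 ± 0.08 and 1.07 ± 0.08. Lpcat3 rose by 0.66 ± 0.03 and 0.61 ± 0.03 and Srebf1 by 0.34 ± 0.03 and 0.14 ± 0.03, both known targets of the same receptors. The 2 other targets in the list did not rise past the threshold. Abca1, also a sterol exporter, stood at 0.13 ± 0.13 (adjusted p = 0.441) and 0.08 ± 0.13 (adjusted p = 0.646, edgeR). Mylip stood at -0.19 ± 0.11 with IL-1β (adjusted p = 0.186) and was lower with LPS at -0.33 ± 0.11 (adjusted p = 0.0324), a call lost under 7 alternatives, among them those without any 1 of the 4 control libraries or without LPS replicate 1. Cyp27a1, Abca1, Mylip, Hsd3b7 and Gpr183 lay outside the rule for named genes and were added for their roles after their values were seen. Hsd3b7, which acts on the product of Cyp7b1 in bile acid synthesis, fell by 0.19 ± 0.04 with each treatment. Gpr183, the receptor for dihydroxylated oxysterols that Cyp7b1 makes, had 4 to 14 counts per library, and its difference was not detectable at this depth (-0.27 ± 0.38 and -0.27 ± 0.37).

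Cyp1b1 hydroxylates oestradiol to a catechol and is a known target of the aryl hydrocarbon receptor (Ahr). Its level was 23.5, 20.7, 22.6 and 20.7 CPM in control libraries, 42.9, 37.3, 41.9 and 39.3 with IL-1β and 52.2, 54.5, 54.7 and 59.2 with LPS. The 3 groups did not overlap and kept the order control, IL-1β, LPS. The log2 fold changes were 0.89 ± 0.05 (adjusted p = 9.97e-14) and 1.33 ± 0.05 (adjusted p = 7.62e-18, edgeR), and LPS was above IL-1β by 0.45 ± 0.05 (adjusted p = 1.36e-07).

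The Ahr gene itself rose, from 17.9 ± 1.15 CPM (SD, n = 4) to 48.2 ± 3.65 with IL-1β and 44.4 ± 2.23 with LPS (log2 fold changes 1.43 ± 0.06 and 1.31 ± 0.06), and its treatments differed by -0.12 ± 0.05 (adjusted p = 0.101, edgeR). Ahrr, a repressor of the receptor and one of its targets, rose by 0.98 ± 0.09 and 0.92 ± 0.09, and Arnt, its partner, by 0.19 ± 0.03 and 0.11 ± 0.03. Tiparp, in the same list, rose by 0.19 ± 0.05 and 0.18 ± 0.05. Its LPS call was lost without LPS replicates 3 and 4 (0.10, adjusted p = 0.162, edgeR). Of 7 genes tested in this system, 4 rose and 1 fell with IL-1β and 6 rose and 0 fell with LPS. The 1 lower was Nfe2l2, an antioxidant regulator, at -0.08 ± 0.03 with IL-1β, a call lost with library size alone as the scaling (-0.03, adjusted p = 0.414) and without Control replicate 1 (-0.06), Control replicate 3 (-0.07), IL-1β replicate 2 (-0.07) or IL-1β replicate 4 (-0.07), while with LPS it rose by 0.23 ± 0.03. Without LPS replicates 3 and 4, 5 genes rose with LPS. Cyp1a1, the classical target of the receptor, had 0 to 4 counts per library, and Cyp1a2 0 to 2, and neither was tested. Nqo1, a further known target, was tested in the list of catechol oestrogen handling and did not pass. It stood at 0.14 ± 0.18 with IL-1β (adjusted p = 0.572) and 0.20 ± 0.18 with LPS (adjusted p = 0.418, edgeR). With the replicate block it was called higher with LPS (adjusted p = 0.0284, edgeR). The core motif bound by the receptor, GCGTG, was searched on both strands of the 6 promoters. It matched in Cyp1b1 at 2 places and in Srd5a3, and 25.9% of all promoters hold it. The Cyp1b1 promoter at chr6:21094315-21094564 (GRCr8, plus strand) is printed with both matches in capitals, the first on the opposite strand.
Cyp1b1: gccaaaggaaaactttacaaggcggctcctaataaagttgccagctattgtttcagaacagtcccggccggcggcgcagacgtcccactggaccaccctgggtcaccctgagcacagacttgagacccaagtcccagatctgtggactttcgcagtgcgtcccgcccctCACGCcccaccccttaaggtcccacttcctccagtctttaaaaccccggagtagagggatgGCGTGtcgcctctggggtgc
The matches lie 81 to 77 and 20 to 16 bases before the start.

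**Figure D3:**
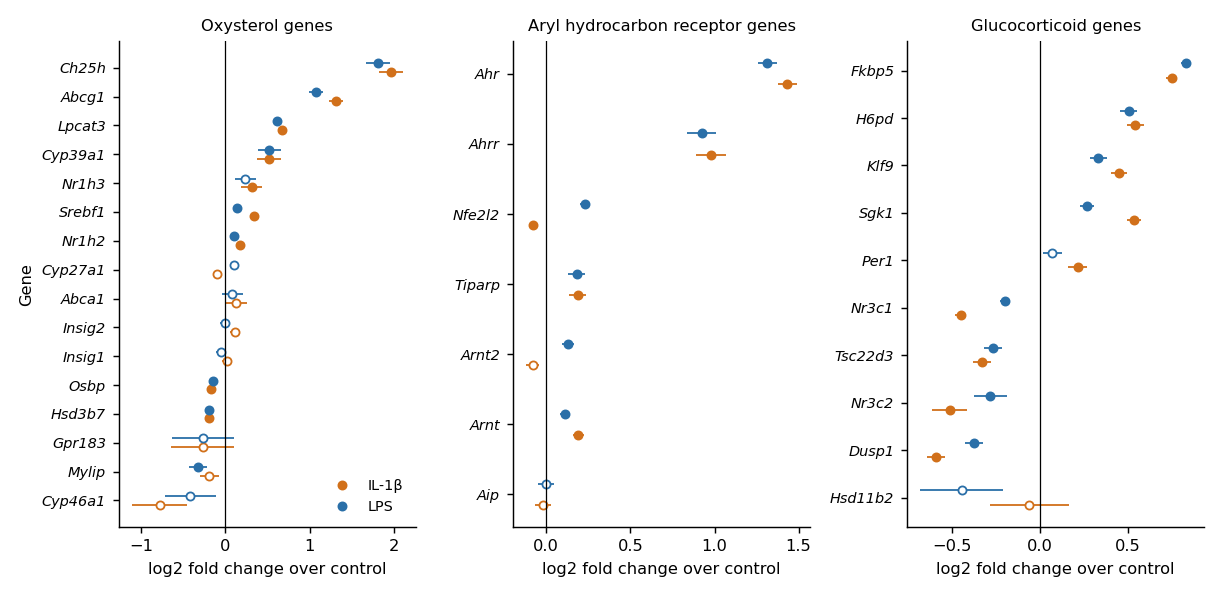
Log2 fold change ± SE over control (horizontal axis) of the tested genes that act on or sense oxysterols (left), of the aryl hydrocarbon receptor system (middle) and of glucocorticoid handling (right), with IL-1β in orange and LPS in blue; filled points passed an adjusted p under 0.05. Ch25h and Abcg1 lie furthest right in the left panel, Ahr and Ahrr in the middle, and Fkbp5 in the right.

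Among 25 relatives that also convert or inactivate androgens, 12 could be tested, and 7 rose and 0 fell with each treatment (medians 0.33 and 0.29). Beside Akr1c15 and Akr1c19 these included Hsd17b4 (0.32 ± 0.03 and 0.27 ± 0.03) and Hsd17b11 (0.35 ± 0.04 and 0.32 ± 0.04), both dehydrogenases. The 7 also held genes of low counts. Cyp19a1 had 0 to 14 per library (1.46 ± 0.46 and 1.43 ± 0.46) and Dhrs9 2 to 32 (1.67 ± 0.32 and 1.14 ± 0.34). Without LPS replicates 3 and 4, 6 rose with LPS, and the call of Dhrs9 was lost (0.84, adjusted p = 0.118, edgeR). Akr1d1 and Hsd17b6, other enzymes of androgen breakdown, had 0 to 7 counts per library. In the list of sex steroid receptors, 3 of 7 rose and 4 fell with IL-1β and 0 rose and 3 fell with LPS (medians -0.08 and -0.08). Calls lost under 6 or more alternatives included those of Esr2 and Pgrmc2 with IL-1β and Pgrmc1 with LPS, and the call of Gper1 with IL-1β was lost under 3. Pgr, the progesterone receptor gene, fell from 7.50 ± 0.59 CPM to 1.73 ± 0.19 and 1.71 ± 0.43 (log2 fold changes -2.11 ± 0.13 and -2.12 ± 0.13). Esr1, an oestrogen receptor gene, rose with IL-1β by 0.42 ± 0.12, and Esr2 fell with LPS by 0.39 ± 0.06. Among 9 tested genes that supply NADPH or pass electrons to cytochromes, 5 rose and 2 fell with IL-1β, and 4 rose and 3 fell with LPS. Por, the reductase on which Cyp7b1 and Cyp1b1 depend, rose by 0.36 ± 0.03 and 0.23 ± 0.03, and Me1, a source of NADPH, by 0.37 ± 0.03 and 0.19 ± 0.03. Idh1 fell by 0.17 ± 0.03 and 0.25 ± 0.03.

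The treatments were also compared with each other. LPS was higher than IL-1β for Cyp7b1, Cyp1b1, Akr1c14 and Hsd11b1, lower for Srd5a1, and not past the threshold for Akr1c3, Akr1c1, Srd5a3 and Sult1a1. Over all genes tested, 21.9% passed in this comparison, 11.3% higher and 10.6% lower. The 5 enzymes that passed were also those whose LPS and IL-1β libraries did not overlap, which held for 11.1% of all genes higher and 10.6% lower. Upstream, in the synthesis of androgens, the order was the reverse for the genes that passed: of 6 tested, 5 were lower with LPS than with IL-1β and 0 higher, among them Cyp11a1 (-1.24 ± 0.09), Fdxr (-0.75 ± 0.06) and Fdx1 (-0.54 ± 0.06). All 6 rose over control with both treatments. Without LPS replicates 3 and 4, 4 of the enzymes were higher and 1 lower with LPS than with IL-1β, as with all libraries.

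**Figure D4:**
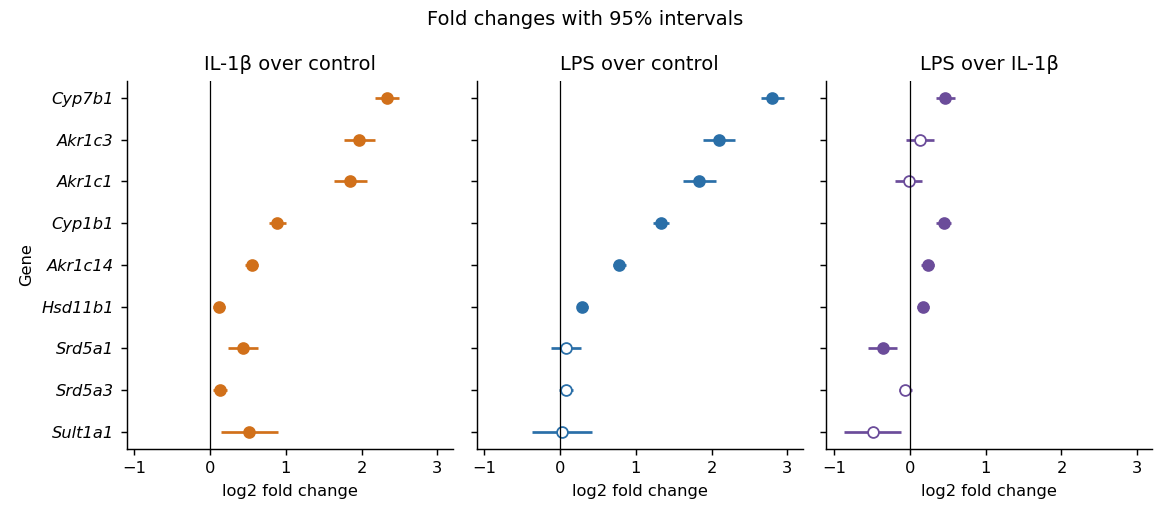
Log2 fold change (horizontal axis) with its 95% interval, not adjusted for multiple testing, of the 9 enzymes for IL-1β over control, LPS over control and LPS over IL-1β. Filled points passed an adjusted p under 0.05; in the right panel Cyp7b1, Cyp1b1, Akr1c14 and Hsd11b1 lie to the right of 0 and Srd5a1 to the left.

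The genes whose levels over the 12 libraries were most like those of an enzyme were found by Pearson's r of log2 CPM. The search covered tested genes with a mean of at least 5 CPM and an informative symbol. Rows with a provisional symbol (LOC, RGD, AABR, ENSRNOG or AC) or a symbol ending in a dash and number were left out, so closer rows may exist among them. With 3 groups of libraries such values are high for any genes that share the group order, and they are given as a description. For Cyp7b1 these were Nfkbiz (r = 0.9966) and then Zeb2, for Cyp1b1 Traf1 (0.9971) and Ccl2 (0.9929), and for Akr1c14 Raet1e (0.9906) and Ccl7 (0.9875). For Akr1c3 they were Cxcl6 (0.9984) and Plk2 (0.9974), and for Akr1c1 Bcl3 (0.9967) and Slc44a1 (0.9963). For Hsd11b1 they were Nadk (0.9915) and Cd2bp2 (0.9519). Cxcl6, Ccl2 and Ccl7 encode chemokines, and Nfkbiz and Bcl3 nuclear members of the IkB family. Zeb2, Traf1, Raet1e, Plk2, Slc44a1, Nadk and Cd2bp2 belong to neither kind. No other row looked like a second copy of an enzyme: Fkbp5 came near Akr1c3 in its mean level over all libraries and in profile (r = 0.9963), but its log2 fold changes were 0.75 and 0.83 against 1.97 and 2.10, and it is a different gene.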

How the data were processed

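RNA was prepared with an Illumina TruSeq Stranded mRNA kit and sequenced on a HiSeq4000, per the labels' protocols. The authors deposited unnormalized counts of reads for each gene symbol, with a column for every library. The submitters' processing notes name TopHat2 (2.1.1), DESeq2, SAMtools and the build Rnor_6.0; the program that counted reads, its annotation and its use of strand are not given in the sources used here, so overlapping or antisense genes may share reads. No 2 replicates differed by as little as sampling noise.

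Counts were filtered by filterByExpr (17330 of 30045 rows), scaled by TMM (factors 0.976 to 1.02) and fitted over all 12 libraries with group as the sole term in edgeR 4.0.16 (glmQLFit, robust; R 4.3.3). Tests were two-sided quasi-likelihood F-tests, adjusted over all genes by Benjamini-Hochberg and called under 0.05. The SE is the log2 fold change over the square root of F. CPM used TMM-scaled totals; likeness between genes used log2(CPM + 0.5). The procedure was tested on simulated counts. The enzymes and gene lists were chosen with earlier results of these data known. Of the lists, named genes are at most 4 per list with the smallest p, plus all Akr1c rows; others named for their role or low counts were chosen after their values were seen. Symbols were matched through RefSeq (GRCr8): all 9 enzymes matched, and Akr1c15 and Sult1e1 were found under older symbols, while 4 listed symbols were not analysed here and some listed genes are not reported here. Alternatives were other scalings, filters, DESeq2 1.42.0, limma-voom (3.58.1), fits on 8 libraries, a replicate block, each library left out, all Akr1c rows summed and, added after seeing the data, LPS replicates 3 and 4 left out.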

Additional observations from a re-analysis of the deposited data

Results flagged for a closer look

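Akr1c3 in LPS replicate 3 stood at 221 CPM, apart from the other LPS libraries at 182 to 187 CPM, a gap larger than Dixon's 95% limit for 4 values. Of the 27 sets of 4 libraries examined for the 9 enzymes this was the 1 set with such a gap, and chance gives about 1 in 20. Without that library the log2 fold change of Akr1c3 with LPS was 2.03.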

How the results depend on the processing

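Calls of the enzymes that changed are given beside them above; those of Cyp7b1, Cyp1b1, Akr1c14, Akr1c3 and Akr1c1 against control passed in the same direction under all the alternatives run. With LPS against IL-1β the number of enzymes lower was 1, and 2 with upper-quartile factors, library size alone and the replicate block, Sult1a1 being the gene added (-0.50, -0.50 and -0.49); leaving out single libraries gave 1 to 2. Signs of values not past the threshold turned for Sult1a1 with LPS against control, which ranged from -0.0622 to 0.137 when single libraries were left out (below 0 once Control 1, Control 3, LPS 2 or LPS 3 was dropped) and was -0.0174 without both LPS replicates 3 and 4. They turned for Akr1c1 between treatments, which ranged from -0.0400 to 0.0527 (above 0 without IL-1β replicate 1 or LPS replicates 3 or 4) and was 0.0520 without both LPS replicates 3 and 4. The cause of these turns was not tested. With all Akr1c rows summed the value was 0.21, which is of the sum and not of Akr1c1. By group mean Akr1c14 held 82.8% to 91.6% of the summed reads and Akr1c1 0.23% to 0.52%. Without LPS replicates 3 and 4 the genes higher between treatments over the whole table went from 1960 to 960 and those lower from 1831 to 1019. Calls higher were 51.7% of calls with IL-1β and 53.0% with LPS, and 64.1% and 63.4% with library size alone. No list gene that passed changed direction under any alternative run. Replicate numbers are shared between groups, and correlations of same-numbered deviations ran from -0.01 to 0.16, not above 0.1 in every pair of any comparison, so the numbers were not taken to pair the samples; replicates 2, 3 and 4, but not 1, correlated best with their own number with LPS against control and against IL-1β, and replicate 2 alone with IL-1β against control. The block is a check alone; with it all 9 enzymes were higher with IL-1β and 6 with LPS. Against control the log2 intervals were widest for Sult1a1 (SE 0.18 and 0.19) and then Akr1c1 (0.11 and 0.11). Sult1a1 had under 100 counts per library, as had Akr1c1 in control. Akr1c3, with 979 counts or more per library, came close to Akr1c1 (SE 0.09 and 0.09). Between the treatments Sult1a1 again had the widest interval, but Akr1c1 did not follow it. The part of depth in these widths was not tested.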
